A study of Mus musculus with 4 samples.

Results

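Squamous keratinocyte-like cells were a small class of epithelial cells in mouse mammary tumours, and 154 of the 160 found came from 1 of 4 single-cell RNA sequencing libraries. The cells were chosen on their own transcripts. A cell was kept with at least 1000 UMIs (unique molecular identifiers, each standing for 1 captured RNA molecule) and at most 20% of them from mitochondrial genes. Per 10000 UMIs, Krt6a, Krt16, Sprr1a, Asprv1 and Klk8 had to sum to at least 5 with at least 2 of the 5 detected, the hormone-sensing genes Prlr, Cited1 and Foxa1 to under 5, Epcam, Krt8, Krt18, Krt14 and Krt5 to at least 5, and the myoepithelial genes Acta2, Mylk, Cnn1 and Oxtr to under 3, with no Ptprc. The 160 cells stood among 10990 epithelial cells (the 160 and 10830 other cells whose Epcam, Krt8 and Krt18 summed to at least 10) and 23572 cells of all kinds. The values of these 18 genes chose the cells and are given below as a description.

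Each library was made from the tumour of 1 mouse at 17 to 18 weeks, with the genotype MMTV-Cre-; Frmd8 fl/fl; PyMT (Cre-, replicates 1 and 3) or MMTV-Cre+; Frmd8 fl/fl; PyMT (Cre+, replicates 2 and 4). All 4 mice carried both floxed Frmd8 alleles and the PyMT oncogene, and the groups differed in the Cre that the MMTV promoter drives in mammary epithelium and that deletes Frmd8 there. The study asked how loss of Frmd8 changes the tumour's cells. Cells were sorted by flow cytometry before loading. Frmd8 itself stood at 24.2 and 24.1 CPM (UMIs of the gene per 1000000 UMIs of the class, over its cells summed) in the other epithelial cells of Cre- replicates 1 and 3, and at 5.68 and 10.9 CPM in those of Cre+ replicates 2 and 4, so that the groups did not overlap. Cre+ replicate 4 was deposited with all its barcodes and was made with an older version of Cell Ranger than the other 3 libraries, and this cannot be told apart from the mouse.

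Squamous keratinocytes are the cells of the epidermis and other stratified epithelia. As they leave the basal layer they exchange the basal keratins Krt5 and Krt14 for others, join through many desmosomes, and at last crosslink proteins such as filaggrin, repetin, trichohyalin and the small proline-rich proteins into a cornified envelope, while kallikrein proteases cut the desmosomes so that dead cells shed. Krt6a and Krt16 are keratins of wounded and hyperproliferative epithelium. Mammary gland epithelium is normally not cornified, but squamous metaplasia is a known feature of some mammary tumours.

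Many genes of cornification lie side by side in the genome and carry sites for AP-1, the FOS and JUN family of transcription factors, in their promoters. The promoters of 3 genes of the epidermal differentiation complex are shown because they hold AP-1-like letters, which most promoters of the class's genes in the table did not: Sprr1a, a small proline-rich envelope protein that was 1 of the 5 selecting genes, Flg, whose product filaggrin bundles keratin filaments, and Rptn, whose product repetin is an envelope protein. Each is the RefSeq sequence of the 250 bases before the start of transcription (GRCm38.p6, 5′ to 3′), with TGANTCA in capitals.
Sprr1a (chr3:92485882-92486131, minus strand): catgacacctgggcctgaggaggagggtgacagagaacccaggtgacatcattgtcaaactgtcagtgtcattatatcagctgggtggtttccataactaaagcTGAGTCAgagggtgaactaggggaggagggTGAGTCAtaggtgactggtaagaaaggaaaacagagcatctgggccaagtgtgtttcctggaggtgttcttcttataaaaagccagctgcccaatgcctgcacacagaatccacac
Flg (chr3:93273296-93273545, plus strand): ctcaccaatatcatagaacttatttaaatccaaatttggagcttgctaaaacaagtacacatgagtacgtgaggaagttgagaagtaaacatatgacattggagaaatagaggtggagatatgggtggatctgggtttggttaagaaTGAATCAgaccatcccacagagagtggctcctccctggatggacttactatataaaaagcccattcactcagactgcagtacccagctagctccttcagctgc
Rptn (chr3:93393449-93393698, plus strand): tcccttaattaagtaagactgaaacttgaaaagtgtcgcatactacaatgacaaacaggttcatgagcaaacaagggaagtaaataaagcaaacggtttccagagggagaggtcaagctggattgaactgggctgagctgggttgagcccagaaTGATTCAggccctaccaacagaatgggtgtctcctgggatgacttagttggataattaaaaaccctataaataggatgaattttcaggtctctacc
The letters TGANTCA, which read alike on both strands, occurred 2 times before Sprr1a and 1 time each before Flg and Rptn, and in 6.75% of all 32851 promoter windows of the same length. The stricter AP-1 letters TGAGTCA or TGACTCA occurred in 4.46% of them, and of the 3 promoters shown only that of Sprr1a held them. Of the 5 selecting genes, 3 had a promoter in the table, and those of Asprv1 and Klk8 held no TGANTCA. Among the 15 genes furthest above the other epithelial cells (named below), 10 had a promoter in the table and 3 of these, Flg, Tmprss11d and Krtdap, held TGANTCA, while Klk6, Klk7 and Klk10 did not. A match is a description of the sequence and not a bound site.

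The number of squamous cells was 3 of 2526 epithelial cells in Cre- replicate 1 (0.119%, exact 95% binomial interval 0.0245 to 0.347%) and 2 of 2674 in Cre- replicate 3 (0.0748%, 0.00906 to 0.270%). It was 1 of 2568 in Cre+ replicate 2 (0.0389%, 0.000986 to 0.217%) and 154 of 3222 in Cre+ replicate 4 (4.78%, 4.07 to 5.57%). Cre+ replicate 4 stood apart, and the other Cre+ library lay below both Cre- libraries, within their intervals. The order of these 3 libraries rests on 1 to 3 cells each and turned with the setting. With cells thinned to 1000 UMIs before the gate, Cre+ replicate 2 (3 cells, 0.113%) lay above Cre- replicates 1 (2 cells, 0.0736%) and 3 (0 cells), and with a gate sum of at least 20 it lay between them (0.0389% against 0.0792% and 0%). Averaged over mice, 2.41% ± 3.35 (SD, n = 2) of the epithelial cells were squamous with Cre, and 0.0968% ± 0.0311 (SD, n = 2) were without it, which is 2.31 percentage points apart (exact two-sided permutation test, p = 1.00, where 2 against 2 mice cannot go below 0.333). Without Cre+ replicate 4 the difference was -0.0578 points as reported, while the thinned shares gave it the other sign. A genotype difference was therefore not shown by these 4 mice, and the share was a property of 1 library.

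**Figure D1:**
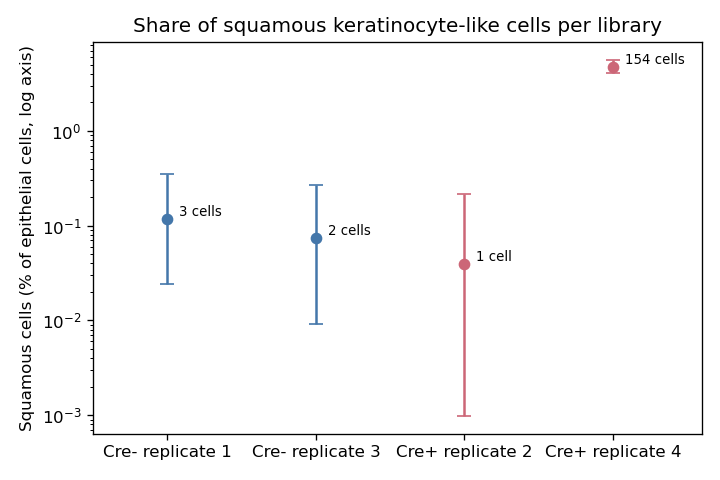
Squamous keratinocyte-like cells as a percentage of the epithelial cells of each library, on a log axis, with exact 95% binomial intervals, which cover counting error only. Cre+ replicate 4 (4.78%, 154 cells) lies above the other 3 libraries, which hold 1 to 3 such cells each.

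The 6 cells of the other 3 libraries held some genes of the class and lacked others. All 6 passed with exactly 2 of the 5 selecting genes. In the 3 cells of Cre- replicate 1 and the 1 cell of Cre+ replicate 2 most of the sum was Sprr1a, with 10 to 110 UMIs a cell. The kallikrein gene Klk10, the keratin Krt79 and the envelope-associated gene Crct1 had 0 UMIs in all 6, and Krt14 was counted in 1 cell of Cre- replicate 3, with 252 UMIs. The 2 cells of that library also held Lgals7 (3564 CPM, against 2411 CPM in the squamous cells of Cre+ replicate 4), Krt7 (2446 against 2099 CPM), Dynap (341 against 376 CPM), Sbsn (455 against 1200 CPM) and 2 UMIs of Klk6. These levels are summed over 1 cell of 49333 UMIs and 1 of 3415, and the part of each cell is not given. The 3 cells of Cre- replicate 1 held 9, 185 and 4 UMIs of Ly6d, so that their summed level (4071 against 2625 CPM) was nearly that of 1 cell. Of 16 barcodes shared by Cre- replicate 1 and Cre+ replicate 4, 2 were squamous in one of the libraries and none in both. When 3 of the 5 genes were required, the 3 libraries held no squamous cell and Cre+ replicate 4 held 98. With so few cells elsewhere, all levels below compare classes of cells within Cre+ replicate 4, and they have no replicate check. The intervals are exact 95% Poisson intervals that cover counting error only.

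The squamous cells of Cre+ replicate 4 were deeper than its other epithelial cells. They had a median of 20823.5 UMIs and 4300.5 genes, against 11062 UMIs and 2757.5 genes in the 3068 other epithelial cells and 21027.5 UMIs and 4277.5 genes in 144 cells that passed a myoepithelial gate (per 10000 UMIs, Krt5 and Krt14 summing to at least 5 and Acta2, Mylk, Cnn1 and Oxtr to at least 3 with at least 2 of the 4 detected, no Ptprc, and the 5 squamous genes under 5). The myoepithelial and other epithelial gates did not exclude each other, so a cell could be in both classes. Mitochondrial genes made a median 2.66% of UMIs in squamous and 3.22% in other epithelial cells. A simulated-doublet score marked 3 of the 154 squamous cells and 210 of the 3068 others. Its median ran the other way, at 0.433 in squamous, 0.3 in other epithelial and 0.433 in myoepithelial-gate cells. The part of depth in the levels below was not tested apart from shares of cells thinned to 1000 UMIs each.

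Of the 5 selecting genes, Asprv1, a protease that processes filaggrin, was the most widely detected, with 6146 CPM (6074 to 6220) in squamous cells and 147 of 154 cells with a UMI. Krt16 stood at 1579 CPM in 113 cells and Krt6a at 1848 CPM in 103 cells. Klk8, a kallikrein protease, was at 890 CPM in 96 cells and Sprr1a at 479 CPM in 42 cells. The other epithelial cells, which had to fail the gate, held 76.0, 37.8, 10.7, 4.81 and 9.46 CPM of the same 5 genes in that order of Asprv1, Krt16, Krt6a, Klk8 and Sprr1a. Only 32 cells had all 5 genes, 31 had 4, 35 had 3 and 56 had 2, so that most cells carried part of the set.

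The gate took in a continuous range of cells. The sum of the 5 genes ran from 5.11 per 10000 UMIs in the lowest cell inside to 1700 in the highest, with a median of 45.5, and 30 cells lay under 10. Among cells that met every other criterion with at least 2 of the 5 genes, the highest outside stood at 4.91, and 43 lay between 2.5 and that value. A further 145 cells that met the other criteria reached the sum of 5 with 1 gene alone and stayed outside. Of 193 cells of the library that met the 5-gene criterion, 27 fell short of the epithelial sum, 13 had Ptprc, 10 reached the myoepithelial sum and 0 reached the hormone-sensing sum. In Cre- replicate 1 the criterion was met by 40 cells, and 36 of these reached the hormone-sensing sum and so stayed outside. Those 36 cells held 1387 UMIs of Sprr1a and 397 of Krt6a but 0 of Krt16.

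Basal and simple keratins were counted together in the class. Krt14 stood at 4803 CPM in squamous cells (122 of 154 cells), 82.9 CPM in other epithelial cells and 1671 CPM in myoepithelial-gate cells. Its partner Krt5 was at 177 CPM and was counted in 17 squamous cells, above the 8.42 CPM of the other epithelial cells and below the 1163 CPM of the myoepithelial-gate cells, where 136 of 144 had a UMI. The simple-epithelial keratins Krt8 and Krt18 stood at 854 and 1508 CPM in squamous cells and at 1383 and 2656 CPM in the others. Of the 3 classes Krt14 was highest in the squamous cells, whose Krt5 lay between the levels of the other classes. Squamous cells could enter on Krt14 or Krt5, the other epithelial cells only on Epcam, Krt8 and Krt18. The myoepithelial gate required Krt5 or Krt14. These differences were therefore fixed in part by the choice of cells.

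Against the other epithelial cells, 843 of 8131 genes with a mean of at least 10 CPM over both classes (10.4%) were at least 2-fold higher in the squamous cells and 449 (5.52%) at least 2-fold lower, outside the 18 selecting genes and the mitochondrial genes. The median log2 ratio over all of them was 0.12. These are counts past a fold, with no test, because 1 mouse supplied both classes. The cells were also selected on correlated genes, so the differences describe the class and do not support its name. A gene under 10 CPM in either class passed the filter through the opposite class alone and had to differ. This holds for each list below, also where it is not repeated. The counts by list stand beside the 10.4% and 5.52% of all genes, and they were not tested. The 15 genes with the highest fold among those at 50 CPM or more were Flg, Calm4, Csta1, Dynap, Pbp2, Crct1, Krt6b, Klk10, Klk6, S100a7a, Klk7, Tmprss11d, Nccrp1, Endou and Krtdap, at 114- to 1077-fold. Of these, Calm4 (43.2%), Csta1 (46.8%), Nccrp1 (45.9%) and Krtdap (50.3%) drew over 40% of their UMIs from a single cell. The folds depended on the cells compared. When cells with Ptprc or a myoepithelial sum of at least 3 were removed from the others, Nccrp1 went from 163- to 1723-fold, Tmprss11d from 200- to 1116-fold, Crct1 from 275- to 978-fold, Krt6b from 246- to 907-fold and Flg from 1077- to 2123-fold. With a gate sum of at least 20, Calm4 went from 1013- to 314-fold and Krtdap from 114- to 50.7-fold. With cells of 200 to 5000 genes and under 30000 UMIs, Flg fell to 600-fold, Crct1 to 119-fold and Csta1 from 499- to 227-fold. Under the same limits Pbp2 rose from 287- to 605-fold and Klk10 from 240- to 511-fold. Over 6 other settings, the 15 folds ran from 50.7 (Krtdap) to 2123 (Flg).

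The list of wound keratins and partners, which takes in keratins of other epithelia, was higher. All 8 genes of that list past the filter were at least 2-fold higher, with a median log2 ratio of 3.92. Krt79, a keratin of hair follicle openings, stood at 2408 CPM in squamous cells, 34.7 CPM in other epithelial and 51.5 CPM in myoepithelial-gate cells, and was counted in 105 of 154 cells. Krt7 stood at 2099 against 289 CPM, and Krt17, a stress keratin, at 1406 against 153 CPM. Krt19 (523 against 81.7 CPM), Krt80 (262 against 10.5 CPM) and Krt6b (174 against 0.708 CPM) were lower in level. Krt6b, under 10 CPM in the other cells, passed the filter through the squamous cells alone and had to be higher. In cells thinned to 1000 UMIs, Krt79 had a UMI in 42.2% of squamous, 1.92% of other epithelial, 4.86% of myoepithelial-gate and 0.304% of immune-gate cells (Ptprc counted, no Epcam, Krt8 or Krt18). That gate leaves out cells with epithelial RNA. In a wider one, chosen after seeing the data (2619 Ptprc cells with Epcam, Krt8 and Krt18 under 10 per 10000 UMIs, median 17311 UMIs), the share was 0.305%. Barcodes with 1 to 100 UMIs, which hold free RNA, had 72.9 CPM of Krt79.

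The suprabasal list had 10 genes past the filter, 8 of them at least 2-fold higher, 0 lower, and a median log2 ratio of 2.78. Ly6d, a surface protein of stratified epithelium, stood at 2625 CPM against 71.6 CPM, Sbsn (suprabasin) at 1200 against 121 CPM and Dmkn (dermokine) at 2463 against 520 CPM. Krt10, a keratin of the spinous layer, was at 30.3 CPM (25.4 to 35.9) against 24.1 CPM, within 2-fold. Its partner Krt1 was among the 8 higher genes, at 43.9 against 0.0590 CPM, but was counted in 6 cells, and 1 cell held 96.9% of its 194 UMIs (744-fold with that cell, 23.3-fold without it). Krt1, under 10 CPM in the other cells, passed the filter through the squamous cells alone and had to be higher. Fabp5, a fatty acid carrier, was at 277 against 495 CPM.

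**Figure D2:**
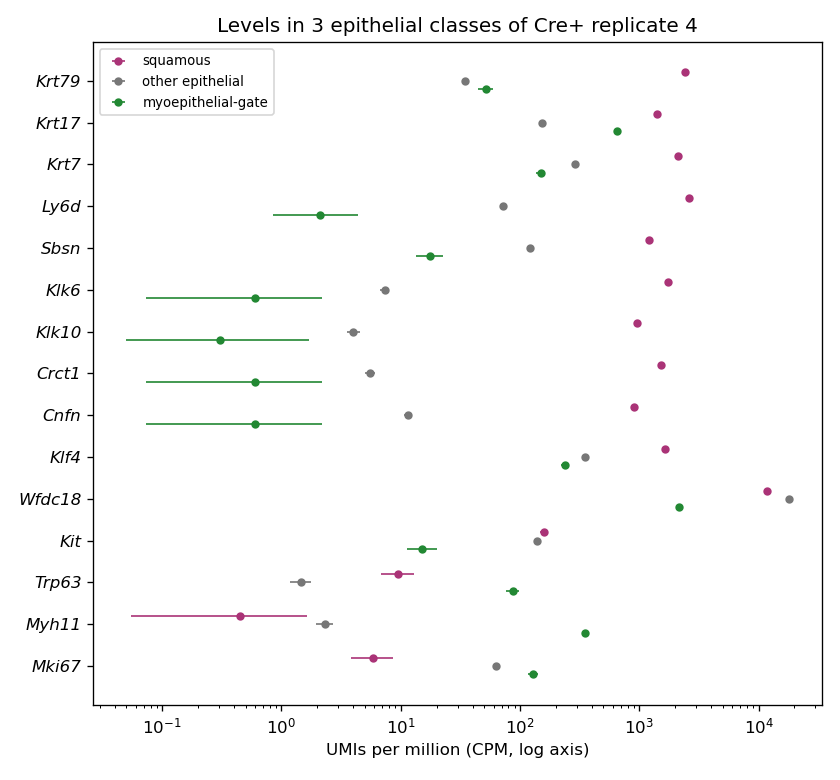
Levels in CPM (log axis) of 15 genes in the squamous, other epithelial and myoepithelial-gate cells of Cre+ replicate 4, each class summed, with exact 95% Poisson intervals. A cell could be in both the other epithelial and the myoepithelial-gate class. Krt79, Ly6d, Klk6, Klk10, Crct1 and Cnfn are highest in squamous cells, Wfdc18 and Kit lie near the other epithelial cells, and Trp63 and Myh11 are highest in myoepithelial-gate cells.

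The cornified envelope list was split. Of 51 listed genes in the files, 33 had 0 UMIs in the squamous cells and 11 passed the filter, all 11 at least 2-fold higher with a median log2 ratio of 5.82. Crct1 stood at 1520 CPM (1484 to 1557) in squamous cells against 5.52 CPM (4.97 to 6.11) in other epithelial cells. It was counted in 42 cells, 1 of which held 29.2% of its UMIs. Cnfn (cornifelin), an envelope component, was at 908 against 11.4 CPM in 52 cells. Tchh (trichohyalin) was at 313 against 5.52 CPM, Rptn at 243 against 2.14 CPM, and Flg at 222 against 0.207 CPM, the latter pair in 18 cells each and in 11 of them together. The crosslinking transglutaminases Tgm1 and Tgm5 stood at 38.9 against 5.93 CPM and 27.4 against 1.24 CPM. Crct1, Tchh, Rptn, Flg, Tgm1, Tgm5, Cdsn and Scel were under 10 CPM in the other cells. They passed the filter through the squamous cells alone and had to be higher. Ppl (periplakin) and Evpl (envoplakin), which anchor the envelope to keratin, were at 172 against 23.3 CPM and 106 against 10.8 CPM. Loricrin (Lor), the main envelope protein of mature epidermis, had 13 UMIs in the squamous cells, or 2.94 CPM. Involucrin (Ivl) had 0 UMIs, which allows up to 0.679 CPM at 3 counts.

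Position in the genome showed the same split. The epidermal differentiation complex on chromosome 3 held 51 genes in the RefSeq order, 50 of them in the files. Just 5, Sprr1a, Crct1, Flg, Rptn and Tchh, had at least 100 UMIs in squamous cells, 40 had at most 3 and 36 had 0. The late cornified envelope and Sprr2 genes that fill much of the region were among those at or near 0. The kallikrein genes on chromosome 7 differed. Of 10 neighbouring genes from Klk14 to Klk5, 7 had at least 100 UMIs, and none was at 3 or fewer. These counts include Klk8 and Sprr1a, which took part in choosing the cells, and the difference between the regions was not tested.

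**Figure D3:**
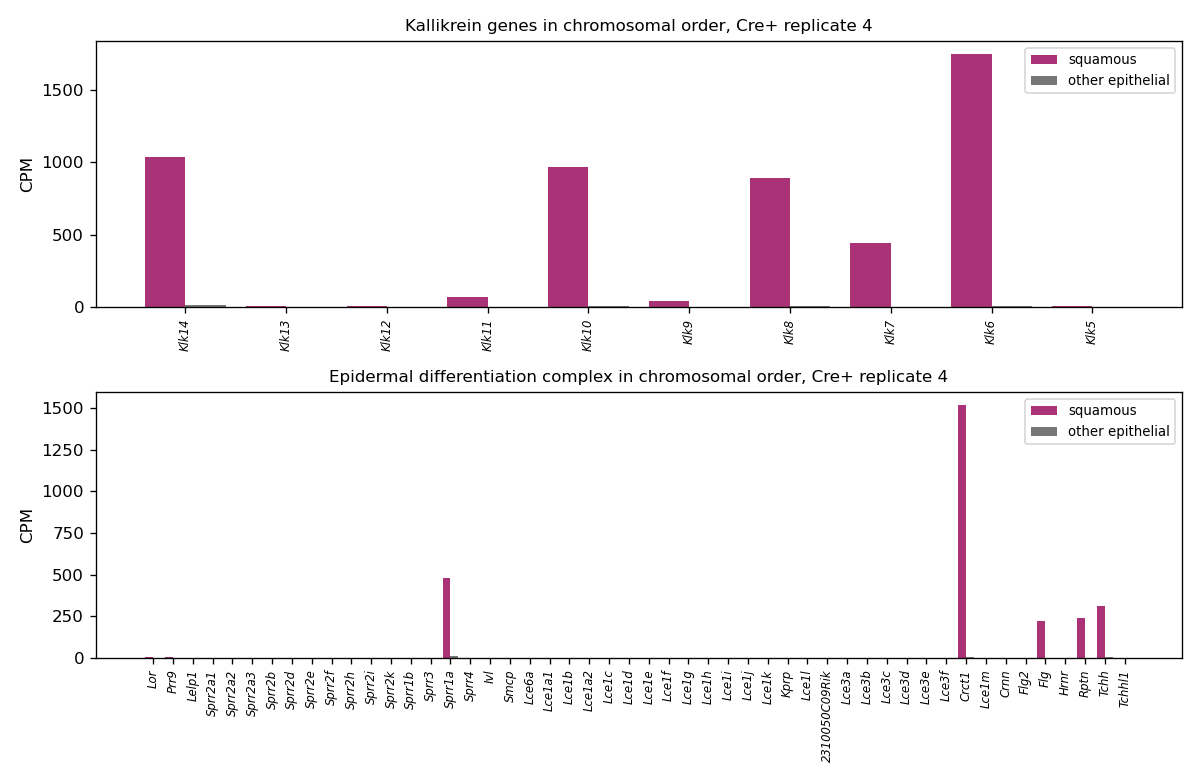
CPM (linear axis) in squamous and other epithelial cells of Cre+ replicate 4 for the kallikrein genes of chromosome 7 (top) and the epidermal differentiation complex of chromosome 3 (bottom), in chromosomal order. Klk8 and Sprr1a took part in choosing the cells. In the top panel 7 of 10 genes carry at least 100 UMIs in squamous cells, in the bottom panel 5 of 50.

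Kallikreins are serine proteases that, among other tasks, cut desmosomes in the outer epidermis. Klk6 stood at 1747 CPM (1709 to 1787) in squamous, 7.32 CPM in other epithelial and 0.606 CPM in myoepithelial-gate cells, and 78 of 154 cells had a UMI. Klk14 was at 1038 against 12.6 CPM, Klk10 at 965 against 4.01 CPM and Klk7 at 440 against 1.93 CPM. Klk11 was at 71.7 and Klk9 at 37.8 CPM, while Klk13, Klk12 and Klk5 stayed under 10 CPM (5.43, 5.66 and 8.37 CPM). With cells thinned to 1000 UMIs, 22.7% of squamous cells (35 of 154, 16.4 to 30.2%) had a UMI of Klk6, against 0.815% of other epithelial, 0.694% of myoepithelial-gate and 0.152% of immune-gate cells (0.153% in the wider immune gate). Without thinning the shares were 50.6% of squamous, 3.68% of other epithelial and 1.45% of immune-gate cells (1.76% in the wider gate). Barcodes with 1 to 100 UMIs held 52.2 CPM of Klk6.

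Protease inhibitors were counted beside the proteases. Together with the kallikreins their list had 16 genes past the filter, 15 of them at least 2-fold higher and 0 lower, with a median log2 ratio of 6.14. Klk6, Klk7, Klk9, Klk10, Klk11, Spink5, Spink12, Csta1 and Tmprss11d were under 10 CPM in the other cells. They passed the filter through the squamous cells alone and had to be higher. Spink5, the inhibitor of epidermal kallikreins, stood at 197 against 2.58 CPM in 58 cells. Cst6, which encodes the cysteine protease inhibitor cystatin M/E, was at 779 against 11.8 CPM in 50 cells, Spink12 at 291 against 6.96 CPM and Csta1, a stefin A gene, at 66.3 against 0.133 CPM. Slpi, a secreted inhibitor of neutrophil elastase, was at 597 against 168 CPM. Mouse stefin A genes are near-identical copies, and their counts are uncertain. St14, a membrane protease that activates others, was within 2-fold, at 116 against 92.8 CPM. Tmprss11d, another membrane serine protease, stood at 292 against 1.46 CPM in 71 cells.

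Of 17 junction genes past the filter, 11 were at least 2-fold higher and 0 lower, with a median log2 ratio of 1.61. The desmosomal plaque and cadherin genes Dsp (desmoplakin, 349 against 18.8 CPM), Pkp1 (plakophilin 1, 243 against 11.1 CPM) and Dsg3 (desmoglein 3, 207 against 5.02 CPM) were counted in 128, 125 and 105 of 154 cells. Dsg3, under 10 CPM in the other cells, passed the filter through the squamous cells alone and had to be higher. Perp, a desmosome-associated membrane protein, was at 626 against 92.6 CPM. The desmosomal cadherin gene Dsg2 was within 2-fold, at 98.6 against 59.0 CPM. Of the 4 claudin genes listed, Cldn1 (124 against 67.1 CPM), Cldn3 (1111 against 1080 CPM) and Cldn7 (415 against 483 CPM) were within 2-fold, and Cldn4 (513 against 237 CPM) was 2.17-fold higher. The gap junction gene Gjb2 (117 against 112 CPM) and E-cadherin, Cdh1 (216 against 170 CPM), were within 2-fold.

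Genes of barrier lipids were few past the filter, 3 of 5 being at least 2-fold higher. Elovl4, which elongates the very long fatty acids of skin ceramides, stood at 182 against 5.46 CPM in 78 cells, and Cers3, which makes those ceramides, at 26.5 against 2.26 CPM. Both were under 10 CPM in the other cells, passed the filter through the squamous cells alone and had to be higher. Of the transcription factors of squamous differentiation, 13 of 22 past the filter were at least 2-fold higher and 1, Tfap2c (39.8 against 88.8 CPM), at least 2-fold lower, with a median log2 ratio of 1.31. Among all genes past the filter, 10.4% were higher and 5.52% lower by as much. Klf4, which drives barrier formation, was at 1641 CPM (140 of 154 cells) against 349 CPM. Prdm1 stood at 95.9 against 5.02 CPM, Hopx at 160 against 8.76 CPM and Zfp750 at 109 against 25.3 CPM. Junb, Fos and Jun, which encode AP-1 subunits, were within 2-fold, at 1421 against 1311 CPM, 2487 against 2038 CPM and 1666 against 1724 CPM. Fosl1, another AP-1 subunit, was at 18.6 against 6.90 CPM. Prdm1, Hopx and Fosl1 were under 10 CPM in the other cells, passed the filter through the squamous cells alone and had to be higher.

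Trp63, the master factor of stratified epithelium and of basal cells, was low. It stood at 9.50 CPM (6.85 to 12.9) in squamous cells, counted in 10 of 154, at 1.45 CPM in other epithelial cells and at 86.6 CPM in myoepithelial-gate cells. Of 9 genes listed as basal keratinocyte past the filter, 5 were at least 2-fold higher than in the other epithelial cells, among them Sfn (1000 against 141 CPM) and the hyaluronan receptor gene Cd44 (247 against 92.6 CPM). Krt15, a basal keratin, was at 37.8 against 6.03 CPM, with 67.1% of its UMIs in 1 cell. Being under 10 CPM in the other cells, Krt15 passed the filter through the squamous cells alone and had to be higher. Itga6, the integrin of the basal surface, was at 61.3 against 120 CPM. Along the bands of the gate sum described below, Sfn rose (780, 950 and 1291 CPM), while Itga6 stood at 72.3, 71.4 and 39.5 CPM.

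Alarmins, the small proteins that stressed epithelium releases, were unevenly spread. Of 12 listed genes past the filter, 8 were at least 2-fold higher and 2 at least 2-fold lower, with a median log2 ratio of 2.62. Among all genes past the filter, 10.4% were higher and 5.52% lower by as much. S100a8 stood at 1225 against 187 CPM in 78 cells, S100a9 at 420 against 72.6 CPM in 22 cells, S100a14 at 1144 against 90.8 CPM in 146 cells and S100a7a at 359 against 1.56 CPM in 45 cells. Il1f5, an epithelial member of the interleukin-1 family, was at 64.7 against 0.797 CPM. S100a7a and Il1f5 were under 10 CPM in the other cells, passed the filter through the squamous cells alone and had to be higher. The 2 lower genes were Il1b (11.8 against 72.7 CPM) and Cxcl2 (32.1 against 123 CPM), which were at 2087 and 2795 CPM in immune-gate cells. The rule removed cells with Ptprc from the squamous class and not from the others. Lcn2 (lipocalin 2) was within 2-fold, at 2311 against 4485 CPM.

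Of 7 listed ligand genes of the EGF receptor, 3 passed the filter. FRMD8 binds the iRhom proteins, which carry the sheddase ADAM17 to the cell surface, where it releases such ligands. All 3 were at least 2-fold higher, but Tgfa, under 10 CPM in the other cells, passed through the squamous cells alone. Hbegf was at 557 CPM (104 of 154 cells) against 186 CPM, Areg at 82.8 against 11.9 CPM and Tgfa at 36.2 against 7.95 CPM. Btc (9.96 against 4.49 CPM), Epgn (7.92 against 1.70 CPM), Egf (0.453 against 3.88 CPM) and Ereg (0 UMIs) stayed under the filter. Of 5 genes listed with FRMD8, 1, Adam10, which encodes a related sheddase, was at least 2-fold higher (94.3 against 44.5 CPM), where 10.4% of all genes past the filter were. Rhbdf1 (38.5 against 19.7 CPM), Adam17 (39.6 against 21.6 CPM), Rhbdf2 (35.5 against 28.5 CPM) and Frmd8 (9.28 CPM, 6.66 to 12.6, against 10.9 CPM) were within 2-fold.

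**Figure D4:**
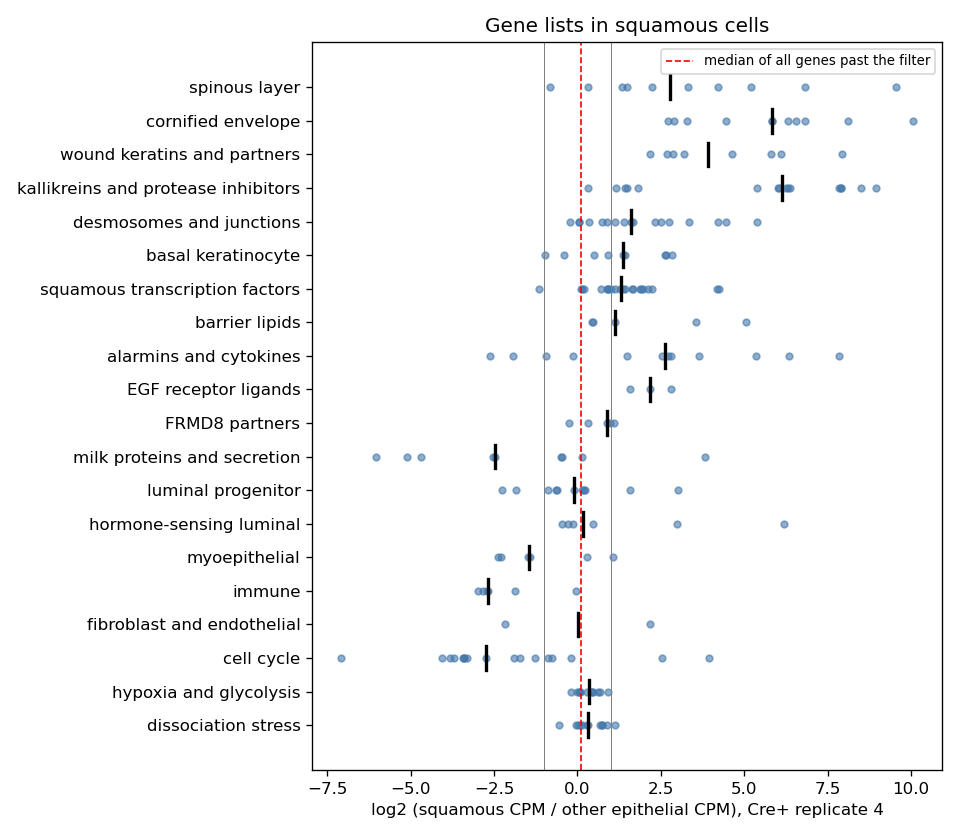
The log2 ratio of squamous to other epithelial CPM in Cre+ replicate 4 for each gene past the filter in 20 gene lists (points), with each list's median (black bar), the median of all genes (dashed line, 0.12) and 2-fold limits (grey lines). Genes of kallikreins, cornified envelope and wound keratins with their partners lie to the right, cell cycle and milk genes to the left, as do immune genes, whose cells the rule removed from the squamous class alone.

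Several genes of luminal progenitors, the secretory precursors of the gland, stood in the squamous cells near their level in the other epithelial cells. Of 11 such genes past the filter, 2 were at least 2-fold higher and 2 at least 2-fold lower, with a median log2 ratio of -0.09. Over all 8131 genes past the filter, 10.4% were at least 2-fold higher and 5.52% at least 2-fold lower. Wfdc18, a member of the whey acidic protein family and the most abundant of the list, stood at 11824 CPM in squamous cells and had a UMI in all 154, against 17910 CPM in other epithelial, 2143 CPM in myoepithelial-gate and 142 CPM in immune-gate cells (182 CPM in the wider immune gate). Thinned to 1000 UMIs, 77.3% of squamous, 92.8% of other epithelial, 30.6% of myoepithelial-gate and 20.2% of immune-gate cells had a UMI. Barcodes with 1 to 100 UMIs held 9527 CPM of Wfdc18. The receptor gene Kit was at 159 CPM (100 of 154 cells) against 140 CPM, and the transcription factor gene Sox10 at 120 CPM (110 cells) against 102 CPM. In immune-gate cells they stood at 3.04 and 1.32 CPM, in the wider immune gate at 3.70 and 2.84 CPM, and in barcodes with 1 to 100 UMIs at 54.8 and 42.8 CPM. Elf5, the factor of alveolar cells, was at 78.3 against 144 CPM. Ltf (lactoferrin) was higher, at 1515 against 511 CPM, as was Aldh1a3 (8.05-fold), and Trf (transferrin) was lower, at 198 against 959 CPM.

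Genes of secretion were lower in the class. Of 9 milk genes past the filter, 5 were at least 2-fold lower and 1, Cidea (57.2 against 4.04 CPM), at least 2-fold higher, with a median log2 ratio of -2.47. Among all genes past the filter, 5.52% were lower and 10.4% higher by as much. Csn3 (kappa casein) stood at 645 CPM in squamous cells against 3736 CPM, Csn1s1 at 2.26 against 77.8 CPM and Csn2 (beta casein) at 4.75 against 123 CPM. The secretoglobin genes Scgb2b27 and Scgb1b27 were at 32.1 against 2157 CPM and 8.15 against 1540 CPM, and Car6, a secreted carbonic anhydrase, at 8.37 against 618 CPM. Mup5, a major urinary protein gene with close copies that make its counts uncertain, was at 0 against 80.3 CPM. Its 0 UMIs in squamous cells allow up to 0.679 CPM at 3 counts. Both secretoglobins also made 864 and 670 CPM of the RNA in barcodes with 1 to 100 UMIs of that library. Saa1, G0s2 and Aqp5 were also among the 10 genes furthest below (3.17 against 59.0 CPM, 12.4 against 211 CPM and 27.8 against 372 CPM). Csn1s1, Csn2, Scgb1b27, Car6, Mup5 and Saa1 were under 10 CPM in squamous cells. They passed the filter through the other cells alone and had to be lower. Cidea, under 10 CPM in the other cells, passed through the squamous cells alone and had to be higher. A single cell held 92.9% of the squamous UMIs of Saa1, 76.2% of Csn2, 50.0% of Csn1s1 and 39.4% of Scgb2b27. The ratios of squamous to other CPM moved with the cells used. Saa1 went from 0.0537 to 0.00609 with a gate sum of at least 20 and to 0 UMIs with cells of 200 to 5000 genes and under 30000 UMIs, under which Car6 went from 0.0135 to 0.107, Scgb1b27 from 0.00529 to 0.0149 and G0s2 from 0.0590 to 0.0285. Without doublets Csn2 went from 0.0385 to 0.00931. Of the 10 genes furthest below, 9 were recomputed under the 6 other settings (all but Mup5), and their highest ratio was the 0.107 of Car6. Several of these secretory genes set the library itself apart. In the other epithelial cells of Cre- replicates 1 and 3 and Cre+ replicate 2, Scgb1b27 stood at 2.86, 3.64 and 11.9 CPM and Mup5 at 3.74, 5.32 and 1.66 CPM.

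Hormone receptors were nearly absent. The limit on 3 genes of hormone-sensing cells removed 0 of the 193 cells of this library that met the 5-gene criterion. Esr1 had 0 UMIs in the 154 cells and Pgr 1, but the other epithelial cells of the library were also low, at 0.398 and 0.207 CPM, against 12.7 and 34.6 CPM in those of Cre- replicate 1, 1.66 and 1.24 CPM in those of Cre- replicate 3 and 6.61 and 9.05 CPM in those of Cre+ replicate 2. Of 6 further genes of that list past the filter, Ly6a (942 against 119 CPM) and Fxyd2 (42.3 against 0.575 CPM) were at least 2-fold higher and none lower. Fxyd2, under 10 CPM in the other cells, passed through the squamous cells alone and had to be higher.

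Genes of dividing cells were lower. Of 17 cell cycle genes past the filter, 12 were at least 2-fold lower and 2 at least 2-fold higher, with a median log2 ratio of -2.73. Among all genes past the filter, 5.52% were lower and 10.4% higher by as much. Mki67 stood at 5.88 CPM (3.84 to 8.62) in squamous cells, counted in 7 of 154, against 63.5 CPM. Top2a was at 6.34 against 66.7 CPM and Ube2c at 8.82 against 148 CPM. Mki67, Top2a, Ube2c, Ccnb1, Ccnb2, Cdk1, Cenpf, Mcm2, Mcm3, Mcm5 and Rrm2 were under 10 CPM in squamous cells. They passed the filter through the other cells alone and had to be lower, so the count above was fixed in part by the filter. The ratio of Ube2c went from 0.0598 to 0.00820 with cells of 200 to 5000 genes and under 30000 UMIs. The 2 higher genes encode inhibitors of cyclin-dependent kinases. Cdkn1a (p21) stood at 658 CPM in 136 cells against 113 CPM, and Cdkn2b (p15) at 114 CPM in 88 cells against 7.42 CPM. Cdkn2b, under 10 CPM in the other cells, passed the filter through the squamous cells alone and had to be higher.

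Genes of hypoxia and of dissociation stress lay mostly within 2-fold of their levels in the other epithelial cells. None of 12 hypoxia genes was 2-fold away in either direction (median log2 ratio 0.34). Of 12 dissociation genes, Hspa1a (141 against 64.6 CPM) was at least 2-fold higher, where 10.4% of all genes past the filter were. The median log2 ratio of the 12 was 0.31. Of 6 immune genes past the filter, 0 were higher and 5 at least 2-fold lower, but the rule required 0 Ptprc of the squamous cells alone, and 238 of the 3068 other epithelial cells had it. Against the 2705 other epithelial cells without Ptprc and with a myoepithelial sum under 3, 1 of the 6, Cd68 (19.2 against 9.50 CPM), was at least 2-fold higher and 0 were lower. The 13 genes of the list summed to 140 CPM in squamous cells, 756 CPM in all other epithelial cells and 176 CPM in those 2705. Their most abundant gene, Cd74, was at 36.2 CPM in squamous cells and 51.2 CPM in those 2705. The 10 fibroblast and endothelial genes summed to 80.8 against 69.4 CPM, led by Dcn (62.7 CPM), of which 1 cell held 62.5%. The hair follicle and sebaceous list had 25 genes in the files, 14 of them with 0 UMIs and 1, Lgr6 (31.4 against 35.4 CPM), past the filter. The 5 red blood cell genes summed to 7.92 against 15.2 CPM.

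Against the myoepithelial-gate cells, the other Krt14-high class of the tumour, 1703 of 8351 genes (20.4%) were at least 2-fold higher in squamous cells and 1036 (12.4%) at least 2-fold lower, with a median log2 ratio of 0.15. Klk10, Klk6, Crct1, Cnfn and Ly6d were the 5 furthest above. Klk10 had 1 UMI and Klk6, Crct1 and Cnfn 2 UMIs each in the myoepithelial-gate cells, so that their folds are bounded loosely (Klk6, 2885-fold, interval 798 to 23828). Ly6d was at 2625 against 2.12 CPM. The 5 furthest below were Maob, Il17b, Myh11, H19 and Col11a1, with 1 or 2 UMIs each in squamous cells. Myh11, smooth muscle myosin, was at 0.453 against 353 CPM and Il17b at 0.453 against 601 CPM. The gates set Acta2, Mylk, Cnn1 and Oxtr high in one class and low in the other, so lower levels of related genes were fixed in part by the choice of cells. Of 11 further myoepithelial genes past the filter, 10 were at least 2-fold lower. Tagln (transgelin) was at 3.62 against 1788 CPM and Igfbp5 at 111 against 2440 CPM. Of 12 genes listed as basal keratinocyte, 7 were at least 2-fold lower and 1 higher, while 7 of 11 luminal progenitor genes were at least 2-fold higher and 0 lower. The 12 hypoxia and 12 dissociation genes had 4 and 5 members at least 2-fold higher and 0 lower.

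The 154 cells differed widely among themselves. When they were divided by the sum of the 5 selecting genes, 55 cells lay at 5 to 20 per 10000 UMIs, 51 at 20 to 100 and 48 at 100 or more, with similar median depths of 21375, 21190 and 19773.5 UMIs. Along these 3 bands Klk6 stood at 25.2, 1164 and 4205 CPM, Crct1 at 13.8, 712 and 3956 CPM and Cnfn at 4.40, 203 and 2582 CPM. In the lowest band these genes lay under their levels in barcodes with 1 to 100 UMIs (52.2, 94.5 and 48.2 CPM). Flg was counted in 1, 4 and 13 cells. Krt79 varied less, at 1429, 2620 and 3285 CPM, and so did Dmkn, at 919, 2452 and 4173 CPM.

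The lowest band had another profile. It held the most Krt17 (2843 CPM, then 471 and 721 CPM) and Krt15 (100 CPM, then 1.44 and 4.16 CPM), although Krt15 was counted in 5 of its 55 cells. Calm4 was at 703 CPM in that band with a UMI in 3 cells. Lgals7 was nearly level, at 2880, 2373 and 1931 CPM. Wfdc18 was also nearly level (10551, 12235 and 12831 CPM), as was Sox10 (104, 145 and 114 CPM). Cdkn1a stood at 281, 602 and 1128 CPM, Klf4 at 734, 1672 and 2610 CPM and S100a8 at 117, 657 and 2991 CPM, while the hypoxia genes Vegfa (444, 280 and 186 CPM) and Slc2a1 (228, 115 and 85.2 CPM) ran the other way. These bands were made from genes that vary with those described, so they carry no test.

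**Figure D5:**
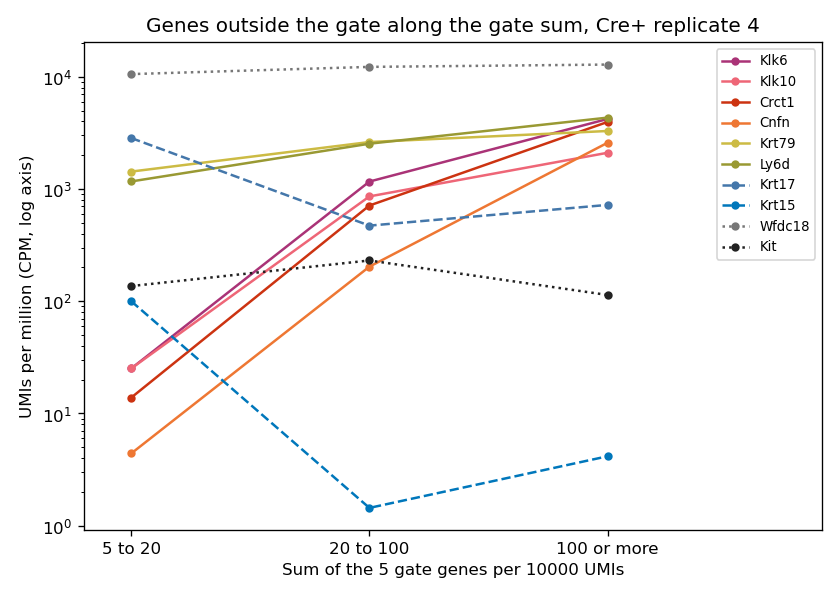
Levels in CPM (log axis) of 10 genes outside the gate in the squamous cells of Cre+ replicate 4, divided into 3 bands by the sum of the 5 gate genes per 10000 UMIs (55, 51 and 48 cells). Klk6, Klk10, Crct1 and Cnfn climb with the sum, Krt15 and Krt17 are highest in the lowest band, and Wfdc18 stays near 10551 to 12831 CPM.

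Genes were also compared by detection in single cells. Klk6 was counted in 78 cells and Klk10 in 77, with 60 cells holding both. Krt5 was counted in 17 cells and Klk6 in 4 of these. Crct1 and Cnfn shared 26 cells of 42 and 52. Krt1 and Krtdap shared 2 cells of 6 and 15. Detection depends on the depth of each cell, and cells of 1 tumour are not replicates, so these counts describe this library.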

How the data were processed

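Single-cell 3′ libraries of 4 mammary tumours, 1 mouse each (2 per group), were analysed. The deposited values are UMI counts per gene and barcode, made by the authors with Cell Ranger (6.1.2 for 3 libraries, 4 for Cre+ replicate 4, which was deposited unfiltered). The submitters' processing notes name hg38 although the features are mouse genes, and the build is otherwise not given in the sources used here. Library totals were 122658098, 112729231, 126843597 and 157662955 UMIs (replicates 1 to 4). Cells were classed by the gene sums given above with Python 3.11.15, numpy 2.4.6 and scipy 1.17.1, and counts were summed per library and class. The planned count model across mice needed 10 squamous cells per library. As 1 library had them, folds within it are given with no test, for genes at a mean of 10 CPM or more, with exact Poisson intervals. Shares carry exact binomial intervals and an exact permutation test over mice. Doublets were scored with 30 neighbours and kept. The genes named are the 15 highest and 10 lowest by fold at 50 CPM or more, 5 each way against myoepithelial-gate cells, 3 per list, the 18 gate genes, Frmd8, Esr1, Pgr and Mki67, and others chosen after their values were seen. The cells, lists and limits were chosen with earlier results of these data known. Interval and threshold code was tested on simulated data. Nothing in the labels says that a group's mice came from separate litters.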

Additional observations from a re-analysis of the deposited data

How the results depend on the processing

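The squamous share differed between Cre+ and Cre- by 2.31 percentage points as reported. Over 7 other settings it was 1.30 (cells thinned to 1000 UMIs before the gate, exact permutation p = 0.333, the smallest 2 against 2 mice allow) to 3.40 points (stricter cell calling of Cre+ replicate 4), always higher in Cre+. Leaving out 1 library at a time gave -0.0578 to 4.68 points, and the negative value was without Cre+ replicate 4 (with thinned cells, the Cre+ library left, at 0.113%, lay above both Cre- libraries). Counts of genes at least 2-fold away stayed within 1.5 times of those reported under 6 settings against other epithelial and 5 against myoepithelial-gate cells (2 in each chosen after seeing the data). With no filter on low values they were 2766 higher and 6800 lower against other epithelial cells, and 4478 higher and 4157 lower against myoepithelial-gate cells, since more genes with few or no UMIs were counted. Of 144 folds of 24 named genes under 6 settings, 0 reversed and 64 moved beyond the counting interval of the value reported (the 15 higher genes ran from 50.7- to 2123-fold). No paired analysis was possible because the replicate numbers are not shared between groups and 1 library alone held enough squamous cells for a comparison of genes. For the same reason the planned count models, their block and left-out libraries, and both genotype comparisons within squamous cells were not run. Depth limits rare genes: 3 counts in the squamous cells of Cre+ replicate 4 stand for 0.679 CPM, and levels under this rest on 1 or 2 UMIs.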
